A study of Drosophila melanogaster with 12 samples.

Results

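The comparison described here sets Drosophila cells labelled as losing Polycomb (Pc), polyhomeotic (ph) and PTIP by RNA interference, called Pc/ph+PTIP, against control cells of the same line. It rests on 6 of the 12 arrays of the series, chosen by their titles: 3 Pc/ph+PTIP arrays and 3 control arrays, numbered 1 to 3 in each group. The other arrays, 3 of cells given dsRNA to Pc and ph only (Pc/ph) and 3 given dsRNA to PTIP only, entered the same statistical fit and are described only where they show what sets Pc/ph+PTIP cells apart.

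All cells were Kc167, a line of embryonic origin that carries the character of plasmatocytes, the macrophage-like blood cells of the fly. Wells of 1000000 cells received 15 µg of double-stranded RNA (dsRNA) against the named genes, serum was added to 5% after 1 h, and total RNA was taken after 6 days and hybridised to Affymetrix Drosophila arrays. The control is labelled as cells alone, and no source used here says whether it received any dsRNA. Nor does any describe the replicates as separate cultures. The p-values then reflect only the scatter among arrays, which may be technical. In bulk RNA, fewer cells of a type and less RNA per cell cannot be told apart.

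Pc and ph belong to Polycomb repressive complex 1, which binds chromatin at developmental genes such as the Hox genes and keeps them silent in cells where they were off in the embryo. Pc reads trimethylated lysine 27 of histone H3, and ph proteins help compact the bound chromatin. PTIP is a BRCT-domain protein that travels with the histone H3 lysine 4 methyltransferase complex containing trithorax-related and the lysine 27 demethylase Utx, which is linked to active genes. The comparison asks what happens to transcript levels when proteins associated with silencing and with activation are depleted together.

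Levels are deposited log2 RMA signals, in which a step of 1 is a doubling, and genes are represented by their probe set with the highest mean. Differences are Pc/ph+PTIP minus control on this log2 scale with the standard error (SE) of a limma fit that includes the replicate number as a block, meaning a term that absorbs what arrays of the same number share. Adjusted p-values are Benjamini-Hochberg values over 18769 probe sets, and a gene is called at an adjusted p under 0.05. The 4 replicate 1 arrays stood apart from the other 8 in every group, with upper quartiles of 8.65 to 8.95 against 9.62 to 9.74, and the first principal component of 68.1% of the variance parted them. Probe sets of 7 Y-linked genes, which a line without a Y chromosome cannot transcribe, read 4.05 to 5.52 and mark the level at which a value cannot be told from no signal; none of them was called in limma, and 1 had an unadjusted p under 0.05.

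The targeted genes were examined first. Pc read 7.24, 8.86 and 8.98 in Pc/ph+PTIP cells, against 8.38, 9.46 and 9.47 in control cells. It was lower in each same-numbered pair, but the groups overlapped and the difference of -0.74 ± 0.20 had an adjusted p of 0.0601 in limma, so it was not called. It was called lower under 8 of the 20 alternative settings, such as replicate 1 as a batch term and quantile normalization (limma adjusted p = 0.00411 to 0.0449), and not under the other 12 (0.0507 to 1.0). Ptip read 7.15, 8.06 and 8.41 in Pc/ph+PTIP cells, against 8.16, 8.52 and 8.26 in control cells, lower in pairs 1 and 2 and higher in pair 3. That difference was -0.44 ± 0.21 (limma adjusted p = 0.339). The ph genes had no probe set annotated with 1 gene symbol, as the gene-level values require, and were not analysed here. Protein levels were not measured either, so the extent of depletion was not tested.

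In Pc/ph+PTIP cells 1046 of 18769 probe sets were called, 5.57% of those tested, with 509 higher (2.71%) and 537 lower (2.86%). By gene this came to 822 of 11982 (6.86%), of which 399 were higher (3.33%) and 423 lower (3.53%). The fall side held more large changes, with 131 genes at least 2-fold lower and 60 at least 2-fold higher. The genes that rose had a median control level of 9.42 and those that fell 10.3, against 6.61 over all genes. The arrays of the groups did not overlap for 446 of the called genes, and for 9.26% of all genes. Among the 8306 genes with a group mean above the Y-linked values, 4.7% rose and 5.07% fell. Of the genes that rose, 30 had a control mean within the Y-linked range, and of those that fell, 13 had a Pc/ph+PTIP mean within it.

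The number of calls depended on the block and on single arrays. Without the block 51 probe sets were called, or 48 genes (0.401%). Leaving out replicate 1, 2 or 3 of Pc/ph+PTIP left 467, 453 or 377 calls, and leaving out replicate 1, 2 or 3 of the control left 487, 640 or 514. Replicates 2 and 3 fitted alone gave 2194 calls, and in 82.6% of these replicate 1 differed in the same direction, beside 57.5% of all probe sets tested. The median absolute difference of the called genes was 0.76, 0.57 and 0.57 in pairs 1, 2 and 3. All 48 genes called without the block were among the 822. Those described below are CNMa, cad, Phk-3, Drat, pnr, fng, rib, Esp, rau, Smvt, Dfd, ap, croc, sqz, Gnmt, ATPsynepsilonL, gnu, Lac and tut among the risers and Ugt37D1, Ugt35C1, Ugt302C1, Cyp4e2, Mgstl, GstE7, Oat, Bcat, P5cr-2, Nmdmc, wdp and JhI-26 among the fallers.

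**Figure D1:**
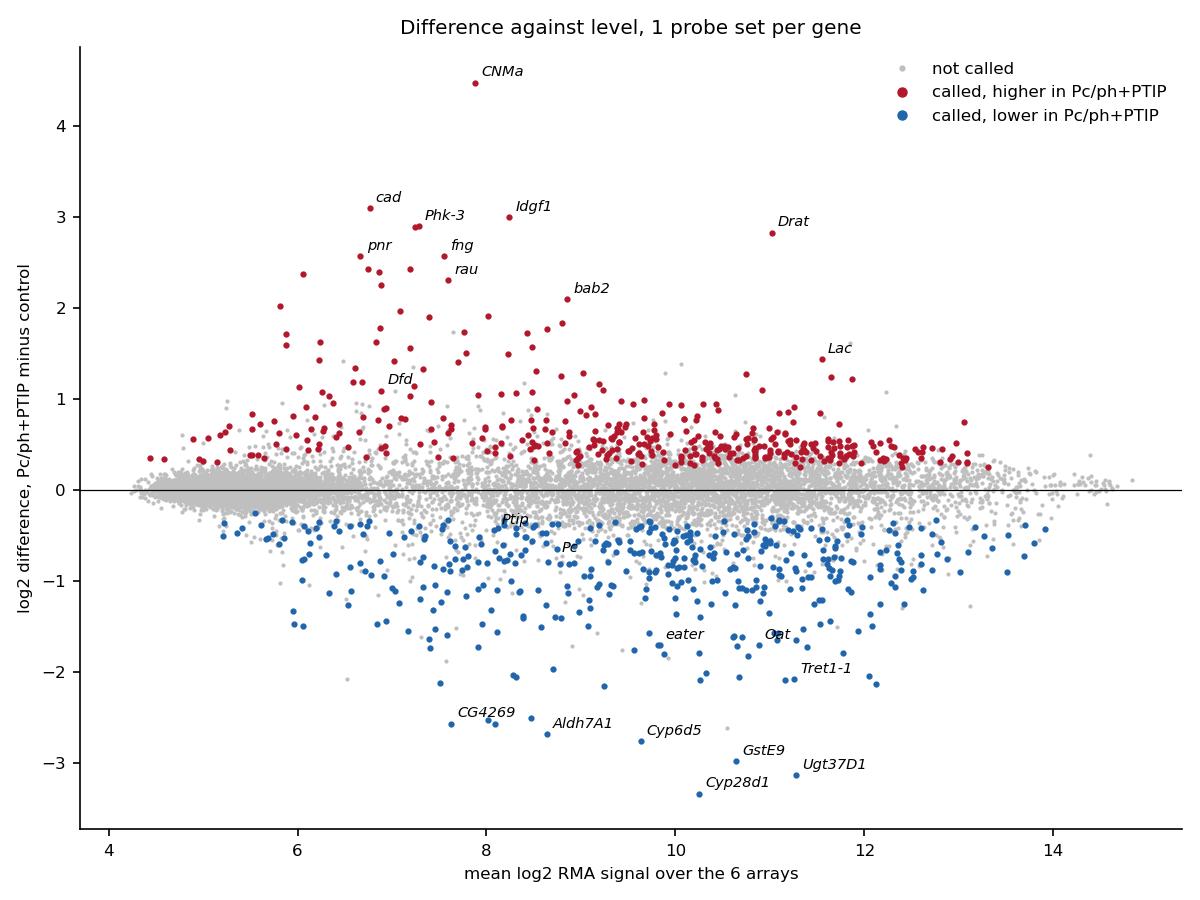
Each point is a gene, with its mean log2 RMA signal over the 6 arrays on the horizontal axis and its log2 difference, Pc/ph+PTIP minus control, on the vertical axis. Red points are the 399 genes called higher, blue points the 423 called lower and grey points the genes not called. CNMa lies highest at 4.48 and Cyp28d1 lowest at -3.33.

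The gene that rose most was CNMa, which encodes the neuropeptide CNMamide. It read 11.15, 9.49 and 9.72 in Pc/ph+PTIP cells, against 5.71, 5.74 and 5.48 in control cells, a difference of 4.48 ± 0.28 or 22.3-fold (limma adjusted p = 6.63e-05). The control arrays lay at or just above the Y-linked range, and every Pc/ph+PTIP array lay far above all of them. Of 52 listed and measured genes for neuropeptides, hormones and their receptors, CNMa alone rose. Dh44-R2, a receptor for the diuretic hormone DH44, alone fell (-1.55 ± 0.30, limma adjusted p = 0.0155). These are 1.92% in each direction, beside 3.33% and 3.53% of all genes. The neuropeptide gene Orcokinin, which was not on the list, fell too (-1.43, limma adjusted p = 0.0103).

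A group of developmental transcription factors rose with it. The homeodomain factor cad (caudal), which patterns the posterior embryo and gut, read 8.84, 8.05 and 8.04 in Pc/ph+PTIP cells, against 5.18, 5.16 and 5.30 in control cells, a difference of 3.10 ± 0.20 (limma adjusted p = 6.63e-05). The GATA factor pnr (pannier) of the dorsal ectoderm and heart read 7.71, 8.09 and 8.05 in Pc/ph+PTIP cells, against 5.17, 5.59 and 5.38 in control cells, a difference of 2.57 ± 0.13 (limma adjusted p = 1.48e-05). The BTB-domain factor rib (ribbon), needed for tracheal and salivary gland tubes, read 8.28, 7.98 and 7.63 in Pc/ph+PTIP cells, against 5.84, 5.42 and 5.34 in control cells, a difference of 2.43 ± 0.17 (limma adjusted p = 9.89e-05). For these 3 genes the groups did not overlap, and the control values lay in or close to the Y-linked range.

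Among 105 measured developmental regulators known as Polycomb targets, a list chosen with earlier results of these data in view, 12 rose (11.4%) and 0 fell, beside 3.33% and 3.53% of all genes. Besides cad, pnr and rib these were bab2, a BTB factor of leg and ovary patterning (2.10 ± 0.34), the odd-skipped family factor bowl (2.03), the Hedgehog effector ci (1.78), the LIM-homeodomain factor ap (1.34), the forkhead factor croc (1.19), the Iroquois factor mirr (1.19), the trunk homeotic factor tsh (1.14), the zinc-finger factor sqz (1.04) and SoxN (0.77). For mirr and SoxN the arrays of the groups overlapped. mirr differed by 2.32 in pair 1, against 0.59 and 0.66 in pairs 2 and 3. ci, bab2 and tsh also differed more in pair 1 (2.76, 3.55 and 1.82) than in pairs 2 and 3 (0.56 to 1.63). The list's median difference was 0.04 beside 0.01 over all genes, and 58 members lay within the Y-linked range in both groups. For 4 of the risers, cad, pnr, bowl and tsh, the control mean also lay within that range, so their differences are set against values that cannot be told from no signal. The count of members that rose lay between 8 and 16 when single arrays were left out and was 6 without the block.

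Of the Hox genes, the targets by which Polycomb was first known, 4 were measured. Dfd (Deformed), which specifies head segments, read 7.38, 7.40 and 7.53 in Pc/ph+PTIP cells, against 6.17, 6.48 and 6.38 in control cells, with no overlap and a difference of 1.09 ± 0.10 (limma adjusted p = 3.99e-04). Antp read 6.51, 5.04 and 5.12 in Pc/ph+PTIP cells, against 5.51, 4.83 and 5.05 in control cells, so that only replicate 1 was clearly apart, and its 0.42 ± 0.29 was not called. The other probe sets of Antp were not called either. pb and Scr stayed within the Y-linked range in both groups, with differences of -0.01 ± 0.09 and -0.05 ± 0.07.

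Of the Polycomb and Trithorax machinery itself, only the Trithorax list gave calls. Of 21 measured Polycomb group genes 0 were called in limma, with 4 at an unadjusted p under 0.05. Replicates 2 and 3 alone called 4 of them higher, and fits without 1 array called up to 1. Psc, another subunit of the repressive complex, differed by 0.63 ± 0.18 (limma adjusted p = 0.0767). Of 26 measured Trithorax group and H3K4 methyltransferase genes, the SWI/SNF subunit mor rose by 0.42 ± 0.08 and Utx fell by 0.59 ± 0.09, with limma adjusted p-values of 0.0192 and 0.00587. These are 3.85% of the list in each direction, beside 3.33% and 3.53% of all genes. Utx read 8.33, 9.35 and 9.28 in Pc/ph+PTIP cells, against 8.93, 9.97 and 9.86 in control cells, with differences of -0.57 to -0.62 in the pairs.

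Several secreted and membrane proteins completed the largest rises. Idgf1, a chitinase-like growth factor of blood cells, read 11.36, 8.78 and 9.08 in Pc/ph+PTIP cells, against 7.08, 6.82 and 6.32 in control cells, a difference of 3.0 ± 0.47 (limma adjusted p = 0.00618). The groups did not overlap, but pair 1 differed by 4.27, against 1.96 and 2.77 in pairs 2 and 3. It was the only riser among 6 Idgf and chitinase-like genes (16.7%, beside 3.33% of all genes). Phk-3, a small secreted protein induced by infection, read 8.05, 9.17 and 8.98 in Pc/ph+PTIP cells, against 5.59, 5.95 and 5.95 in control cells, a rise of 2.90 ± 0.22 that was close to even across pairs.

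Other large rises were seen for Esp, a sulphate transporter family gene expressed in epidermal stripes (2.43 ± 0.26), the Ly6-type protein gene bero (2.39 ± 0.45), Smvt, a vitamin transporter (2.25 ± 0.29), and the unnamed genes CG9691 (2.89 ± 0.61) and CG13506 (2.37 ± 0.56). CG9691 and CG13506 rested heavily on replicate 1, where they rose by 5.19 and 4.84, against 1.13 to 1.81 in pairs 2 and 3. CG9691 was called in 8 and CG13506 in 2 of the 12 fits that left out 1 array each.

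**Figure D2:**
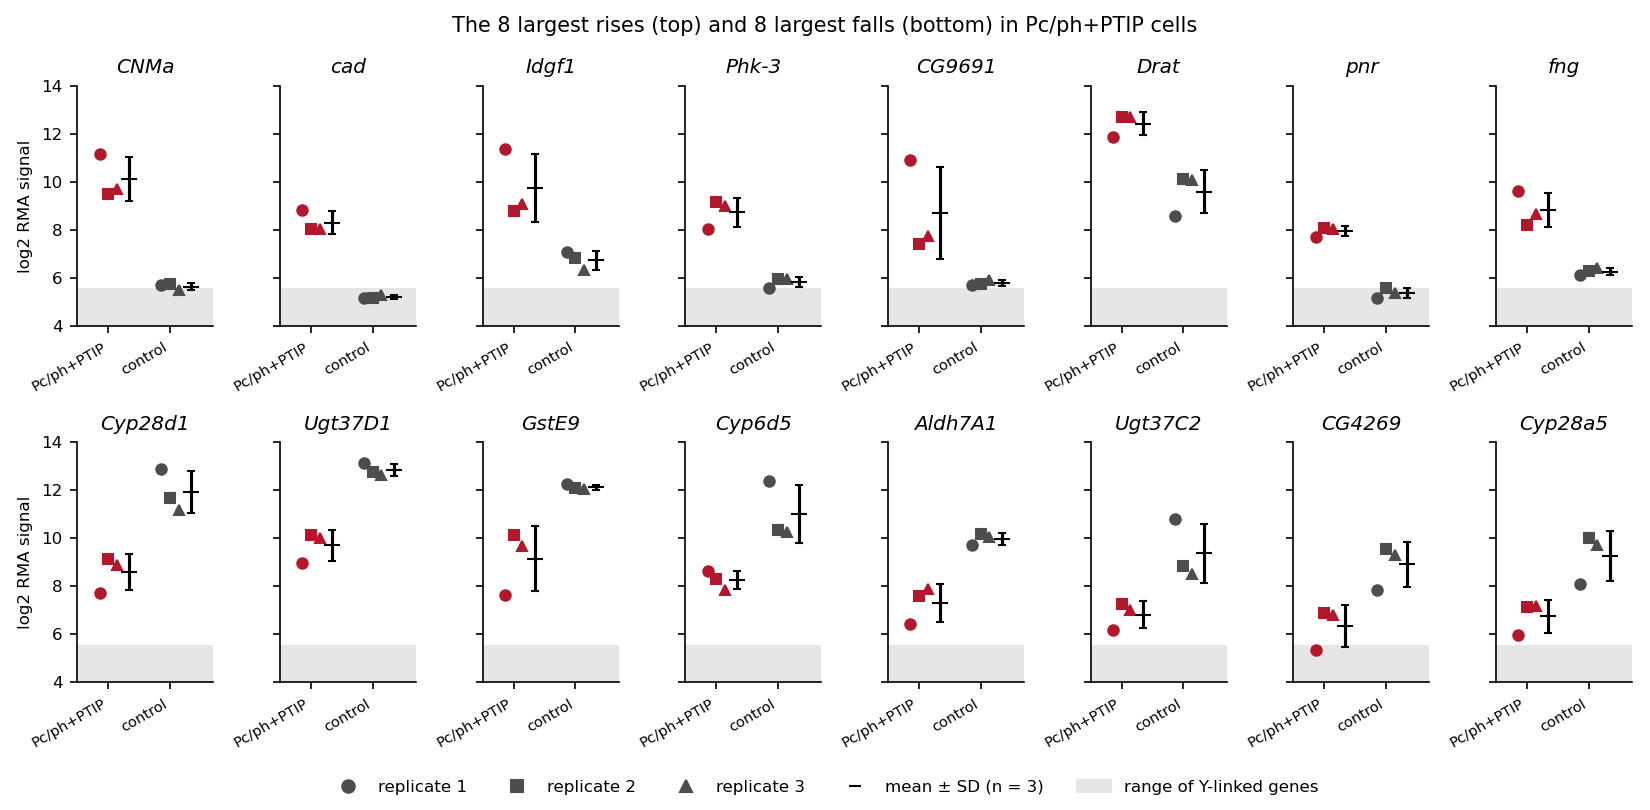
Log2 RMA signal (vertical axis) of the 8 genes that rose most (top row) and the 8 that fell most (bottom row), with Pc/ph+PTIP arrays left of control arrays in each panel. Symbols mark the replicate, black bars the mean ± SD of 3 arrays and the grey band the range of Y-linked genes, 4.05 to 5.52. CNMa, cad and pnr start from control values near that band, whereas the genes that fell have control values well above it.

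Several signalling genes rose. Of 25 Notch pathway genes 4 rose (16%) and 0 fell, beside 3.33% and 3.53% of all genes. When single arrays were left out, 2 to 5 rose and up to 2 fell, and without the block 1 rose. They were fng (fringe), which glycosylates the Notch receptor, by 2.57 ± 0.28, the Notch inhibitor numb by 0.73 ± 0.11, the corepressor gro by 0.52 and the ubiquitin ligase dx by 0.43. fng read 9.63, 8.22 and 8.66 in Pc/ph+PTIP cells, against 6.10, 6.28 and 6.42 in control cells (limma adjusted p = 0.00109), with no overlap.

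Of 28 EGF receptor and Ras genes 4 rose (14.3%) and 2 fell (7.14%), beside 3.33% and 3.53% of all genes. When single arrays were left out, 2 to 6 rose and 1 to 2 fell, and without the block 1 rose and 0 fell. rau, which prolongs receptor tyrosine kinase signalling, read 9.44, 8.35 and 8.45 in Pc/ph+PTIP cells, against 6.67, 6.38 and 6.27 in control cells, a rise of 2.31 ± 0.24 (limma adjusted p = 0.00106). S (Star), which traffics EGF ligands, and the MAP kinase kinase Dsor1 rose by 0.43 and 0.31, as did dnt, a Ryk-type receptor outside the EGF pathway proper, by 0.54. sprt, which is not a clear member of this list and whose role is not given here, fell by 2.05 ± 0.20, and the FGF ligand bnl fell by 1.09 ± 0.25. The dimmest probe set of bnl was not called.

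Of 14 JAK/STAT genes the receptor dome rose by 0.78, while et, a receptor-like inhibitor, fell by 1.29 and wdp, a leucine-rich repeat protein that dampens the pathway, fell by 1.49. The adjusted p-values of these 3 in limma were 0.00701, 0.00423 and 0.00482. Of the list 7.14% rose and 14.3% fell, beside 3.33% and 3.53% of all genes.

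Smaller differences occurred in hormone and growth lists. Of 34 genes listed under ecdysone response Hr39 rose (0.62) and JhI-26, ImpL2 and Kr-h1 fell, JhI-26 by 1.55 ± 0.23. Of this list 2.94% rose and 8.82% fell, beside 3.33% and 3.53% of all genes. A response to ecdysone itself was not tested. Of 19 insulin and TOR genes 2 fell and 0 rose, namely ImpL2, a secreted insulin-binding protein (-0.90), and the amino acid transporter path (-0.36). A probe set of Hr39 in the Y-linked range was not called, while its other 3 were.

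Of the 15 largest falls, 10 belonged to 3 families of detoxification enzymes. The lists of these families held 35, 81 and 48 of the 11982 genes. They were chosen with earlier results of these data in view, so the 10 of 15 is given as a value only. UDP-glycosyltransferases attach sugars to toxins and waste products, and cytochrome P450 enzymes oxidise them; both families act chiefly in fat body, gut and Malpighian tubules. Of all genes 3.53% fell and 3.33% rose. Of 35 UDP-glycosyltransferase genes 6 fell (17.1%) and 1 rose (2.86%). Of 81 cytochrome P450 genes 11 fell (13.6%) and 4 rose (4.94%). When single arrays were left out, 4 to 6 and 5 to 13 members of these lists fell, and without the block 3 and 1 did.

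Cyp28d1 had the largest fall of any gene. It read 7.73, 9.13 and 8.89 in Pc/ph+PTIP cells, against 12.88, 11.68 and 11.18 in control cells, a difference of -3.33 ± 0.65, or 10.1-fold lower (limma adjusted p = 0.0172). The groups did not overlap, and pair 1 differed by -5.15, against -2.55 and -2.29 in pairs 2 and 3.

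Ugt37D1 read 8.97, 10.15 and 10.004 in Pc/ph+PTIP cells, against 13.13, 12.76 and 12.62 in control cells, a difference of -3.13 ± 0.24 (limma adjusted p = 1.87e-04). Every control array lay above every Pc/ph+PTIP array by more than 2 log2 units. Its relatives Ugt37C2, Ugt317A1, Ugt35C1, Ugt302C1 and Ugt35A1 also fell, with differences of -2.56, -2.50, -1.97, -1.73 and -0.93, and Ugt36E1 rose by 0.68. Ugt37C2 rested heavily on replicate 1, with differences of -4.61, -1.56 and -1.53 in pairs 1, 2 and 3. It was called in 5 of the 12 fits that left out 1 array each. Ugt35A1 in Pc/ph+PTIP cells was flat at 6.28, 6.33 and 6.31.

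Among the other cytochromes P450, those that fell were Cyp6d5 (-2.75 ± 0.41), Cyp28a5 (-2.52 ± 0.22), Cyp9c1 (-2.15 ± 0.40), Cyp12a5 (-2.12 ± 0.45) and Cyp6a23 (-2.08 ± 0.45). Cyp4e2, Cyp6a22, Cyp12e1, Cyp6d4 and Cyp4ae1 fell too, with differences of -1.21 to -0.39. The 4 that rose were Cyp12d1-d (1.77 ± 0.34), Cyp6a2 (1.56 ± 0.25), Cyp6d2 (0.97 ± 0.21) and Cyp4c3 (0.80 ± 0.14). Cyp12d1-d and Cyp6a2 are known as genes induced by insecticides and other foreign compounds. Cyp12d1-d has a near-identical neighbouring copy, and the array may not separate the pair.

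Of 48 glutathione transferase and redox genes 5 fell (10.4%) and 3 rose (6.25%), beside 3.53% and 3.33% of all genes. GstE9, which conjugates glutathione to reactive molecules, read 7.62, 10.14 and 9.68 in Pc/ph+PTIP cells, against 12.24, 12.11 and 12.04 in control cells, a difference of -2.98 ± 0.45 (limma adjusted p = 0.00539). The control arrays were tight and the Pc/ph+PTIP arrays were spread by replicate 1, which was the lowest. A second probe set of GstE9 lay within the Y-linked range and was not called (-0.16). Mgstl (-1.57 ± 0.17), GstE7 (-0.89), GstD10 (-0.40) and GstE6 (-0.39) fell, and GILT1, GstS1 and GstD7 rose by 1.28, 1.08 and 0.82. The number of falling members ran from 3 to 12 when single arrays were left out.

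Enzymes of sugar metabolism fell as well. Of 32 carbohydrate metabolism genes 11 fell (34.4%) and 0 rose, beside 3.53% and 3.33% of all genes. The list's median difference was -0.43. These counts take 1 probe set per gene. Over all 38 probe sets of the same genes 11 were called lower and 2 higher, with a median of -0.34. The trehalose transporter Tret1-1 read 8.38, 11.35 and 10.94 in Pc/ph+PTIP cells, against 11.94, 12.52 and 12.43 in control cells, a difference of -2.07 ± 0.46 (limma adjusted p = 0.0273), and was lowest by far in replicate 1. Trehalase (Treh), which splits trehalose into glucose, fell by 1.61 ± 0.17. Phosphoglucomutase (Pgm1) fell by 1.83 ± 0.22, and the gluconeogenic bisphosphatase gene fbp fell by 1.80 ± 0.15.

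Glycolysis genes were among them. Phosphofructokinase (Pfk) read 10.23, 11.31 and 11.004 in Pc/ph+PTIP cells, against 11.82, 12.35 and 12.11 in control cells, a difference of -1.25 ± 0.19 (limma adjusted p = 0.00508). The glycolytic enzymes Pgi (-0.79), Hex-A (-0.78) and Tpi (-0.64) fell, as did malic enzyme, Men (-0.94), glycogenin, Gyg (-0.79), and the maltase Mal-A5 (-0.56). Without the block 0 of the 11 were called, and 5 to 16 members of the list fell when single arrays were left out.

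Of 40 amino acid catabolism and one-carbon genes 8 fell (20%) and 2 rose (5%), beside 3.53% and 3.33% of all genes. Aldh7A1, an aldehyde dehydrogenase, read 6.42, 7.58 and 7.89 in Pc/ph+PTIP cells, against 9.70, 10.17 and 10.06 in control cells, a difference of -2.68 ± 0.49 (limma adjusted p = 0.0129). Ornithine aminotransferase (Oat) read 10.005, 9.97 and 10.11 in Pc/ph+PTIP cells, against 11.46, 11.90 and 11.83 in control cells, a difference of -1.71 ± 0.14 (limma adjusted p = 2.50e-04). Both groups were tight for Oat and lay more than 1 log2 unit apart. The branched-chain aminotransferase Bcat fell by 1.61 ± 0.25. The other members that fell were the carboxylase subunit Mccc2 (-1.13), the folate enzyme Nmdmc (-1.08), P5cr-2 (-1.04), the glutamine synthetase Gs2 (-0.67) and AhcyL1 (-0.43). When single arrays were left out, 4 to 9 members fell and 1 to 4 rose, and without the block 4 fell and 1 rose.

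The risers of that list were amd, of the catecholamine pathway of cuticle (1.27 ± 0.31), and Gnmt, which consumes S-adenosylmethionine (1.22 ± 0.15). Gnmt read 12.84, 12.25 and 12.36 in Pc/ph+PTIP cells, against 11.39, 11.28 and 11.12 in control cells, without overlap. Respiratory chain genes gave few calls. Of 76 oxidative phosphorylation genes 1 rose (1.32%) and 2 fell (2.63%), beside 3.33% and 3.53% of all genes. The riser was ATPsynepsilonL, a paralogue of an ATP synthase subunit (1.84 ± 0.18), and the fallers were COX7AL (-0.78) and ND-MNLL (-0.33).

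Ribosomal protein, ribosome biogenesis and proteasome genes gave few calls, beside 3.33% higher and 3.53% lower of all genes. Aminoacyl-tRNA synthetase and translation initiation factor genes are described at the end. RpS10a was the only riser of 41 cytosolic ribosomal protein genes (0.47), and Prosalpha4 of 40 proteasome genes (0.25), with 0 falling in either list. They make up 2.44% and 2.5% of their lists. Of 33 ribosome biogenesis genes 0 were called in limma, with 9 at an unadjusted p under 0.05. Of 21 heat shock and chaperone genes DnaJ-1 rose by 0.34 and Trap1 fell by 0.40, which is 4.76% of the list in each direction.

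Many cell division genes rose by small amounts. Of 55 mitosis and chromosome segregation genes 14 rose (25.5%) and 1 fell (1.82%), beside 3.33% and 3.53% of all genes. The list median was 0.25. The kinetochore gene Nuf2 rose by 0.58, the cytokinesis exchange factor pbl by 0.68, the chromosomal passenger borr by 0.56 and cyclin B (CycB) by 0.48. Others that rose by 0.32 to 0.48 were Spc25, tum, Cap-D2, ncd, scra, pim, Bub3 and fzy. The checkpoint kinase Bub1 went the other way and fell by 0.36.

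The largest rise of the list was that of gnu, a regulator of the early embryonic divisions, which read 7.62, 7.73 and 8.05 in Pc/ph+PTIP cells, against 6.89, 6.58 and 6.50 in control cells. Its difference was 1.14 ± 0.15 (limma adjusted p = 0.00271), and it was the only member of the list called without the block. When single arrays were left out, 5 to 19 members rose. The 2 dimmer probe sets of fzy were not called.

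The 42 measured DNA replication and S-phase genes had a median difference of 0.25. Among them 5 rose (11.9%) and 0 fell, beside 3.33% and 3.53% of all genes. The risers were the primase subunit Prim1 (0.93 ± 0.22), the helicase subunit Mcm6 (0.55), the GINS subunit Sld5 (0.53), PolE4 (0.46) and the repressive E2F factor E2f2 (0.45). The count ran from 0 to 13 when single arrays were left out, was 0 without the block, 23 in replicates 2 and 3 alone, 15 after quantile normalization and 13 after cyclic loess.

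Of 44 DNA damage and repair genes 5 fell (11.4%) and 1 rose (2.27%), beside 3.53% and 3.33% of all genes. The translesion and end-joining polymerases PolQ, PolZ1 and PolI fell, with differences of -0.73 ± 0.10, -0.71 ± 0.13 and -0.56 ± 0.14, as did the glycosylase Tdg (-0.71 ± 0.17) and Brca2 (-0.44), while Fancl rose by 0.48. The number of falling members ran from 1 to 7 when single arrays were left out, and 0 were called without the block.

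Among 41 cell death and stress regulators 2 rose (4.88%) and 4 fell (9.76%), beside 3.33% and 3.53% of all genes. Drat, an alcohol-dehydrogenase-like gene that takes part in hypoxic and starvation-linked cell death, read 11.86, 12.71 and 12.73 in Pc/ph+PTIP cells, against 8.57, 10.14 and 10.10 in control cells, a difference of 2.83 ± 0.14 (limma adjusted p = 1.48e-05). Every pair differed by more than 2.5. The stress-inducible TOR inhibitor Sesn rose by 0.97, and the tumour necrosis factor egr, ImpL2, the autophagy adaptor ref(2)P and Bruce fell, with differences of -1.55, -0.90, -0.76 and -0.50.

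Septate junctions seal epithelia and build the blood-brain barrier of the fly. Of 35 measured septate junction and epithelial genes 12 rose (34.3%) and 0 fell, beside 3.33% and 3.53% of all genes. The list median was 0.40. Lac, an immunoglobulin-type adhesion protein, read 12.29, 12.33 and 12.19 in Pc/ph+PTIP cells, against 10.87, 10.91 and 10.71 in control cells, a rise of 1.44 ± 0.13 (limma adjusted p = 5.71e-04). The arrays of each group lay close together, and the pairs differed by 1.42 to 1.48.

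The Ly6 proteins crim, crok and cold, which help assemble septate junctions, rose by 1.16 ± 0.17, 1.10 ± 0.10 and 0.79 ± 0.11, and bero, another Ly6 gene, by 2.39. The sodium pump subunit nrv2, the claudin kune, Tsf2, Nrx-IV, the polarity gene scrib and E-cadherin (shg) rose by 0.51 to 0.87. The remaining riser, r (rudimentary, 0.72), is known for pyrimidine synthesis and not as a junction gene. The count of risers ran from 6 to 15 when single arrays were left out, and was 1 without the block and 15 in replicates 2 and 3 alone.

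**Figure D3:**
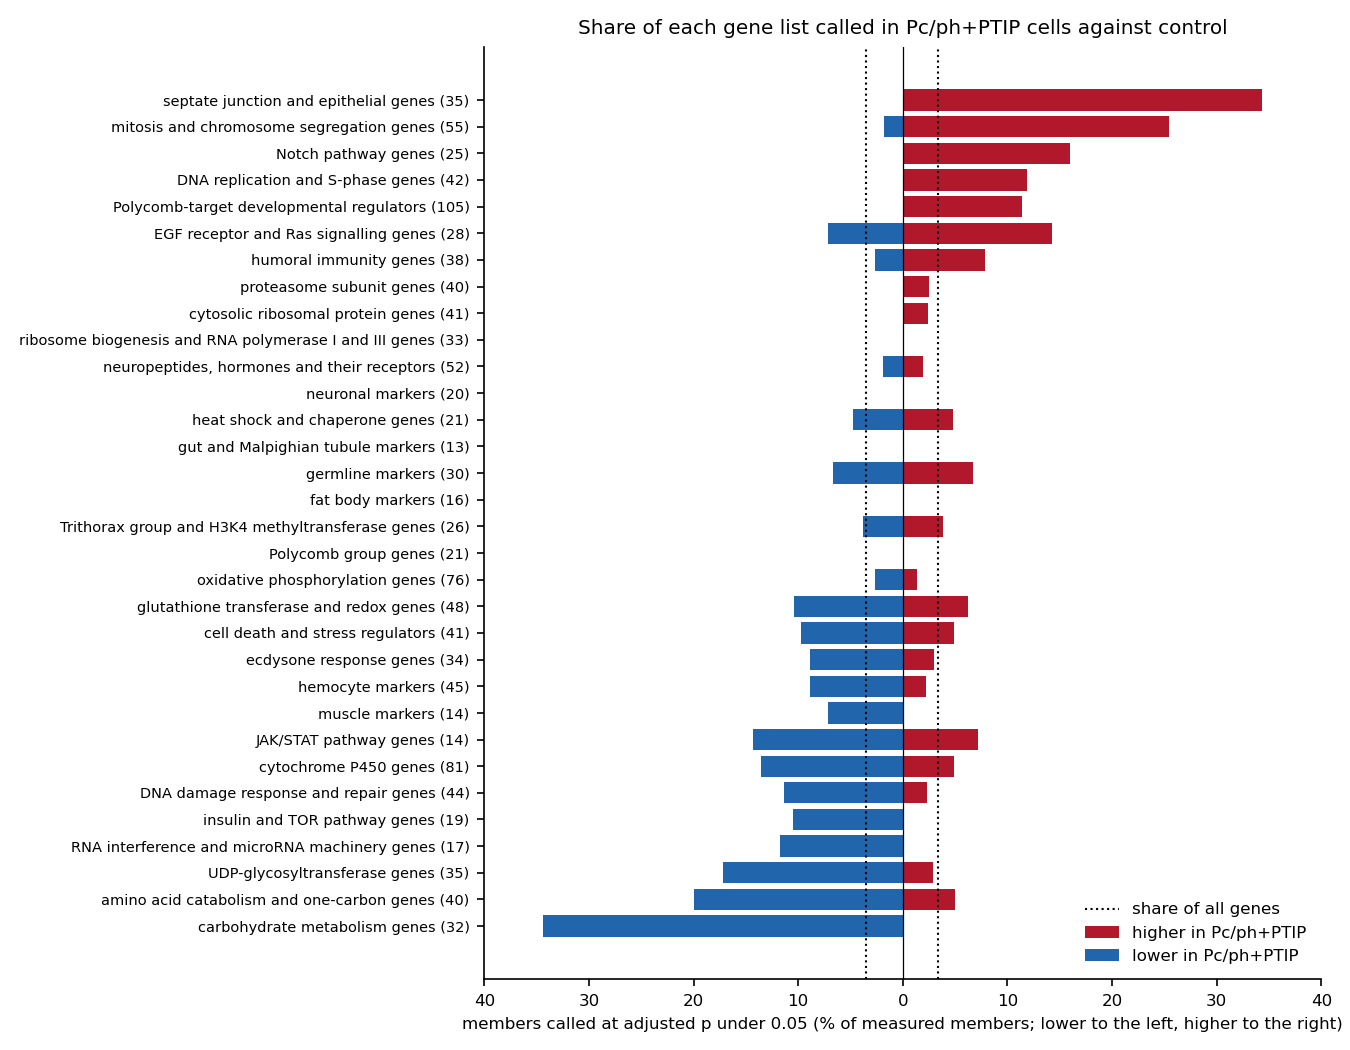
Bars give the percentage of each list's measured members called in Pc/ph+PTIP cells, higher to the right in red and lower to the left in blue, for lists with at least 10 measured members (number in brackets). Dotted lines mark the shares of all genes, 3.33% higher and 3.53% lower. Septate junction and mitosis genes extend farthest to the right (34.3% and 25.5%), and carbohydrate metabolism genes farthest to the left (34.4%).

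**Figure D4:**
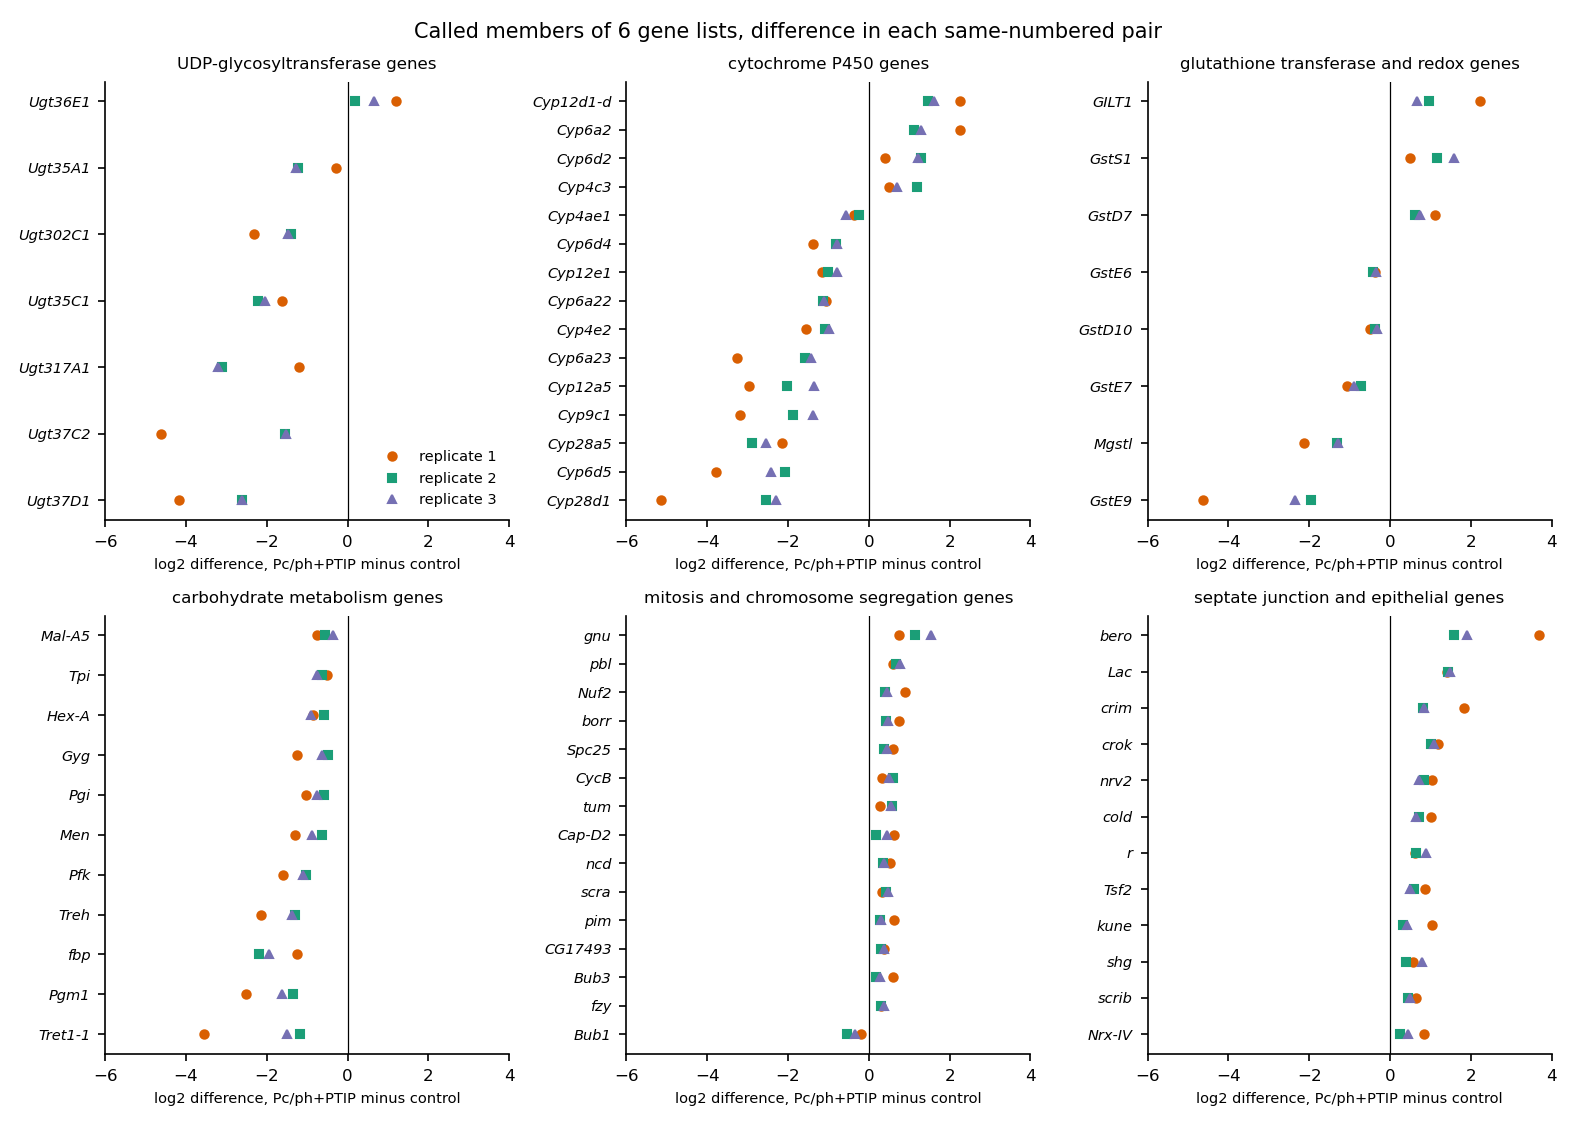
Log2 difference, Pc/ph+PTIP minus control, in each same-numbered pair (horizontal axis; symbols and colours mark the replicate) for every called member of 6 gene lists. Pair 1 often gives the largest falls, such as -5.15 for Cyp28d1. All 3 pairs of each gene lie on the same side of 0, which held for all 822 called genes and so does not set these lists apart.

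The identity of the cells was checked with blood cell markers. The GATA factor srp read 12.21, 12.20 and 12.11 in Pc/ph+PTIP cells, against 11.97, 12.01 and 11.96 in control cells, and Hml (hemolectin) read 13.02, 13.05 and 13.13 in Pc/ph+PTIP cells, against 12.52, 13.13 and 12.93 in control cells. Neither was called, and both were abundant in every array. Of 45 hemocyte markers 4 fell (8.89%) and 1 rose (2.22%), beside 3.53% and 3.33% of all genes. The riser was jumu, a forkhead factor (0.84).

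The scavenger and phagocytic receptors eater and Sr-CI fell (-1.70 ± 0.23 and -1.32 ± 0.30), as did the matrix proteins Glt (-1.0) and SPARC (-0.58). eater read 8.0, 9.39 and 9.56 in Pc/ph+PTIP cells, against 9.77, 11.18 and 11.10 in control cells (limma adjusted p = 0.00336), with differences of -1.79 to -1.54 in the pairs. The phagocytic receptor NimC1 read 5.70, 7.18 and 7.02 in Pc/ph+PTIP cells, against 6.31, 9.64 and 9.59 in control cells, a difference of -1.88 ± 0.51 that was not called (limma adjusted p = 0.061).

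Markers of neurons, fat body, gut and tubules gave no calls, whereas those of muscle and germline gave some. Of 20 neuronal, 16 fat body and 13 gut and Malpighian tubule markers 0 were called in limma, with 1, 3 and 2 at an unadjusted p under 0.05. Their median levels per array were 5.49 to 5.51 in Pc/ph+PTIP cells and 5.36 to 5.54 in control cells for neuronal markers, and 5.88 to 5.92 in Pc/ph+PTIP cells and 6.03 to 6.13 in control cells for fat body markers. For gut and tubule markers they were 5.50 to 5.89 in Pc/ph+PTIP cells and 5.42 to 5.76 in control cells. Of 14 muscle markers bt fell (-0.77), and of 30 germline markers tut (1.25) and bam (0.96) rose and bgcn (-0.81) and rhi (-0.42) fell. That is 7.14% of the muscle markers, and 6.67% of the germline markers in each direction, beside 3.33% higher and 3.53% lower of all genes.

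Of 38 humoral immunity genes 3 rose (7.89%) and 1 fell (2.63%), beside 3.33% and 3.53% of all genes. The risers were the NF-kappaB inhibitor cact (0.85 ± 0.20), the peptidoglycan amidase PGRP-LB (0.71 ± 0.15) and bero, a Ly6 gene that is also counted among the septate junction genes and is not a clear immunity gene. The peptidoglycan sensor PGRP-LE fell (-0.48). Of 17 RNA interference and microRNA genes 2 fell (11.8%) and 0 rose, beside 3.53% and 3.33% of all genes. Dcr-2, which cuts long dsRNA, fell by 0.74 ± 0.17 and Ranbp21 fell by 0.62 ± 0.16. Dcr-2 read 8.86, 9.94 and 10.07 in Pc/ph+PTIP cells, against 10.02, 10.57 and 10.51 in control cells. Exposure to dsRNA may differ between these groups, and its part in the Dcr-2 difference was not tested.

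Neighbouring genes were compared next, using gene order in the RefSeq annotation. Of 10354 measured neighbouring pairs both genes rose in 18 and both fell in 35. Among all genes 3.33% rose and 3.53% fell, so some pairs would be shared by unrelated neighbours. No comparison with unrelated pairs was made, and the pairs below are given as values only. cad and its neighbours dia (0.89 ± 0.19) and Pomp (0.30) all rose. bero and CG9338 rose by 2.39 and 1.63, crok and CG6583 by 1.10 and 0.88, Idgf1 and CG5888 by 3.0 and 0.85, and CG13506 and babos by 2.37 and 1.73. Pairs that fell included Ugt37C2 with CG17928 (-2.56 and -2.08), sprt with CG30022 (both -2.05), wdp with Gp150 (-1.49 and -0.69) and GstE7 with GstE6 (-0.89 and -0.39).

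The next question was where Pc/ph+PTIP cells differed from cells with knockdown of Pc and ph alone. Here 1033 probe sets were called (5.5%), 544 higher (2.9%) and 489 lower (2.61%) in Pc/ph+PTIP cells. By gene these were 848 (7.08%), with 456 higher (3.81%) and 392 lower (3.27%). Pc itself was among them. It read 7.24, 8.86 and 8.98 in Pc/ph+PTIP cells, against 6.18, 6.96 and 7.18 in Pc/ph cells, a difference of 1.59 ± 0.20 (limma adjusted p = 0.00208), so the Pc transcript was higher in the triple knockdown, and its part in the differences below was not tested.

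Of the developmental regulators named above, cad, pnr, rib and tsh were lower in Pc/ph+PTIP than in Pc/ph cells. cad read 8.84, 8.05 and 8.04 in Pc/ph+PTIP cells, against 9.76, 10.02 and 10.24 in Pc/ph cells, a difference of -1.69 ± 0.20 (limma adjusted p = 0.00125). pnr and rib differed by -1.42 ± 0.13 and -2.09 ± 0.17 (limma adjusted p = 2.90e-04 and 1.74e-04). For cad, pnr and rib the Pc/ph+PTIP arrays lay between the control arrays and the Pc/ph arrays without overlap. tsh differed by -1.17 ± 0.25 (limma adjusted p = 0.0253).

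Esp read 9.10, 8.02 and 8.10 in Pc/ph+PTIP cells, against 11.59, 11.35 and 11.33 in Pc/ph cells, a difference of -3.02 ± 0.26 (limma adjusted p = 2.17e-04). Esp is not on the list of developmental regulators. Of that list, ap and croc were higher in Pc/ph+PTIP than in Pc/ph cells by 0.82 ± 0.20 and 0.84 ± 0.13 (limma adjusted p = 0.0416 and 0.00585). For bab2, ci, SoxN and sqz the differences of 0.09, -0.09, -0.07 and 0.09 were not called, nor were those of mirr (-0.94) and bowl (1.12).

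A further 8 listed regulators were lower in Pc/ph+PTIP than in Pc/ph cells and not called against control. Examples are the eye factor Optix (-2.40), disco-r (-1.95), oc (-1.74), disco (-1.59) and peb (-1.54). disco-r read 5.45, 5.09 and 5.02 in Pc/ph+PTIP cells, against 5.18, 5.12 and 5.11 in control cells, within the Y-linked range in both groups. The difference of Dfd from Pc/ph cells, -0.34 ± 0.10, was not called (limma adjusted p = 0.0715).

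CNMa showed another order. It read 11.15, 9.49 and 9.72 in Pc/ph+PTIP cells, 7.45, 6.45 and 6.80 in Pc/ph cells, 5.61, 5.52 and 5.65 in PTIP cells and 5.71, 5.74 and 5.48 in control cells. Its level in Pc/ph+PTIP cells was above that in Pc/ph cells by 3.22 ± 0.28 (limma adjusted p = 2.22e-04) and above that in PTIP cells by 4.53 ± 0.28 (limma adjusted p = 1.43e-04). Pc/ph minus control was 1.26 ± 0.28 and not called (limma adjusted p = 0.0634), although the arrays did not overlap, and the PTIP and control arrays overlapped.

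In most metabolic and detoxification lists some members were higher and some lower in Pc/ph+PTIP than in Pc/ph cells, beside 3.81% and 3.27% of all genes. The counts were 6 higher and 5 lower of 40 amino acid catabolism genes, and 2 and 3 of 32 carbohydrate metabolism genes. They were 3 and 7 of 81 cytochrome P450 genes, and 5 and 7 of 48 glutathione and redox genes. The UDP-glycosyltransferase list went to 1 side, with 0 higher and 6 lower of 35 genes. Some other lists also leaned to 1 side, with 14 higher and 0 lower of 33 ribosome biogenesis genes and 8 and 0 of 35 septate junction and epithelial genes. Of 45 hemocyte markers 3 were higher and 11 lower. Lower than in Pc/ph cells were Oat (-1.996 ± 0.14), Cyp28a5 (-3.07 ± 0.22), Ugt317A1 (-2.50 ± 0.35) and the phagocytic receptor gene eater (-2.27 ± 0.23), with limma adjusted p-values of 1.31e-04, 1.38e-04, 0.00352 and 6.73e-04. Among risers rau was higher than in Pc/ph cells by 3.20 ± 0.24, Phk-3 by 2.85 ± 0.22, fng by 2.68 ± 0.28 and CG4914 by 2.67 ± 0.12. CG4269 showed no detectable difference from Pc/ph cells (0.01 ± 0.10). It read 5.33, 6.90 and 6.80 in Pc/ph+PTIP cells, 5.56, 6.74 and 6.69 in Pc/ph cells and 7.84, 9.57 and 9.31 in control cells.

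Against cells with PTIP knockdown alone, 6 probe sets were called (0.032%), 5 higher (0.0266%) and 1 lower (0.00533%) in Pc/ph+PTIP cells, with 778 at an unadjusted p under 0.05 in limma. By gene these were 5 of 11982 (0.0417%), with 4 higher (0.0334%) and 1 lower (0.00835%). The higher genes were CNMa (4.53), cad (3.01 ± 0.20), pnr (2.51 ± 0.13) and rib (2.10 ± 0.17), together with a probe set shared by KP78a and KP78b. The lower gene was CG2233, named here after its values were seen, at 7.31, 7.16 and 7.15 in Pc/ph+PTIP cells, against 8.402, 8.19 and 8.19 in PTIP cells (-1.05 ± 0.10). The difference of Dfd from PTIP cells, 0.71 ± 0.10, was just short of the threshold (limma adjusted p = 0.0507).

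None of the 15 genes with the largest falls was called against PTIP cells. Cyp28d1, Ugt37C2, Cyp28a5 and Cyp6d5 had differences of -0.01 ± 0.65, -0.01 ± 0.59, 0.05 ± 0.22 and -0.06 ± 0.41 from PTIP cells. Drat read 11.86, 12.71 and 12.73 in Pc/ph+PTIP cells, 10.49, 11.61 and 11.39 in Pc/ph cells, 12.05, 12.82 and 12.80 in PTIP cells and 8.57, 10.14 and 10.10 in control cells. Its arrays in Pc/ph+PTIP and PTIP cells overlapped. A p that misses the threshold does not show that the groups are alike: for Cyp28d1 the SE of 0.65 leaves room for differences of either sign.

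**Figure D5:**
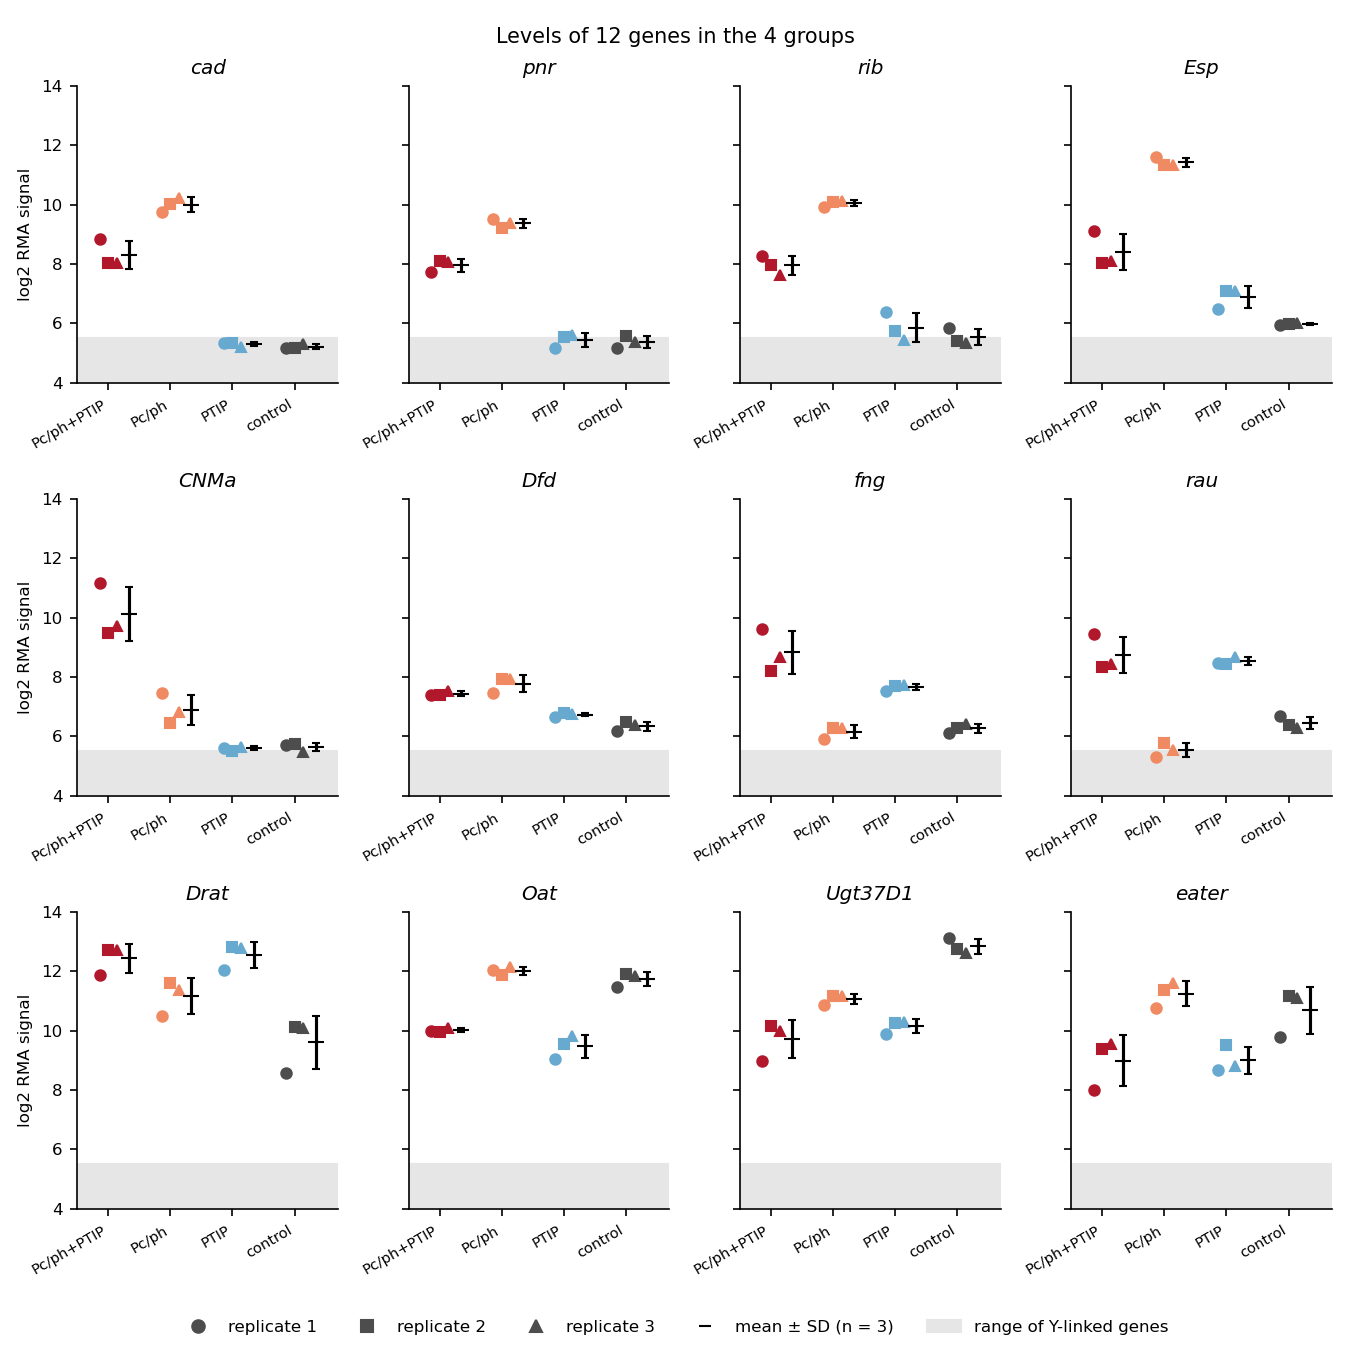
Log2 RMA signal (vertical axis) of 12 genes in Pc/ph+PTIP, Pc/ph, PTIP and control arrays, with the replicate marked by symbol, the mean ± SD of 3 arrays in black and the Y-linked range in grey. cad, pnr, rib and Esp lie between the Pc/ph and control levels in Pc/ph+PTIP cells, CNMa lies above all other groups, and Drat, Oat and Ugt37D1 lie closer to their PTIP levels than to their control levels.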

How the data were processed

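The deposited values are log2 signals, 1 per probe set and array, which the authors made with RMA and tested with limma, per the submitters' processing notes; no source used here gives their versions. They were used as deposited. Of 18952 probe sets 183 AFFX controls were set aside. The platform annotation gives 13647 of the rest 1 symbol, 402 several and 4720 none; 13544 matched the RefSeq gene table (Release 6 plus ISO1 MT) by gene number and 103 did not. The probe set with the highest mean over 12 arrays stood for each of 11982 genes.

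All 12 arrays were fitted in limma 3.58.1 under R 4.3.3 with 4 group means and the replicate number as a block (6 residual degrees of freedom), without a variance trend, two-sided, with Benjamini-Hochberg adjustment within each comparison. Fits on simulated data were checked first. Same-numbered arrays, after removal of group means, correlated at 0.489 to 0.880 over 18 pairs; Pc/ph+PTIP with control gave 0.759, 0.681 and 0.611 for numbers 1, 2 and 3. Numbers 2 and 3 crossed between these groups gave 0.598 and 0.709, so the data show mainly a replicate 1 batch. The labels say nothing of what a number shares. The number of arrays limits the precision.

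Genes named are the 15 largest rises and 15 largest falls among called genes with the same sign in all pairs, the depleted and Hox genes, up to 4 called members of each list per direction, the largest differences also called against the other knockdowns, and called neighbours. Further called list members, cell type markers and a few uncalled genes were added after their values were seen. The comparison, the gene lists and these rules were chosen with earlier results of these data known. Lists were described by counts and medians without a set test.

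Alternatives were no block, replicate 1 as a batch, only the groups compared, replicates 2 and 3 only, each array left out, quantile and cyclic loess normalization, a variance trend, and only probe sets above the median of mean values.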

Additional observations from a re-analysis of the deposited data

How the results depend on the processing

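Without the replicate block 51 probe sets were called against control and 56 against Pc/ph. Replicates 2 and 3 alone gave 2194 calls for the control comparison, 2925 for Pc/ph and 67 for PTIP. Fits to only the groups compared gave 664 calls against Pc/ph and 28 against PTIP, and a variance trend gave 10 against PTIP. Leaving out 1 array at a time gave 377 to 1563 calls for the control comparison, 333 to 1561 for Pc/ph and 4 to 17 for PTIP. The cause was not tested; fewer arrays also leave fewer degrees of freedom. Higher calls made up 48.7% against control, and 32.3% without control replicate 3. Of the 131 called genes picked by the naming rule, 24 kept their call without the block, 130 with replicate 1 as a batch, 95 with only the groups compared, 123 in replicates 2 and 3, 125 and 126 after quantile and loess normalization and 122 with a trend. In every leave-one-out fit 58 kept it, among them CNMa, cad, pnr, rib, Drat, Ugt37D1, Oat and Lac. Others kept it in fewer of these 12 fits, such as Prim1 in 3, amd, cact and Glt in 4, and egr and Ugt37C2 in 5. None of the 131 reversed under these settings. The remaining counts of probe sets in these comparisons stayed within 1.5 times. Promoter motifs were not run because no promoter sequences were used here.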

Other observations

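Families chosen after their values were seen are given as values, with no test. Of 32 aminoacyl-tRNA synthetase genes, whose enzymes load amino acids onto tRNA, 10 were called lower in Pc/ph+PTIP cells (31.3%, beside 3.53% of all genes) and 0 higher, with a median difference of -0.41. Lower in all 3 pairs were 24 of the 32, and 19.3% of all genes. None of the 10 was called in limma without the block (adjusted p = 0.262 to 1.0). IleRS read 11.52, 12.35 and 12.26 in Pc/ph+PTIP cells, against 12.90, 13.09 and 12.98 in control cells, and fell by 0.95 ± 0.16 (limma adjusted p = 0.00862). ValRS (-0.88), ThrRS (-0.76), GlyRS (-0.72) and LeuRS (-0.71) fell, as did CysRS-m, GluRS-m, AlaRS, AspRS-m and GluProRS (-0.66 to -0.41).

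Of 40 translation initiation factor genes 5 fell (12.5%) and 0 rose, beside 3.53% and 3.33% of all genes. None of the 5 was called in limma without the block (adjusted p = 0.0605 to 1.0). eIF4B read 9.83, 10.59 and 10.52 in Pc/ph+PTIP cells, against 11.58, 11.72 and 11.69 in control cells, and fell by 1.35 ± 0.17 (limma adjusted p = 0.00247). The subunits eIF2Bgamma, eIF2Bdelta and eIF2Balpha of the exchange factor for eIF2 fell (-1.10, -1.06 and -0.57), as did eIF2D (-0.59). Of 10 asparagine-linked glycosylation genes Alg12 fell by 1.36 and Alg7 fell by 0.85, which is 20% of them. Of 20 nucleoporin genes Nup43, Nup35 and Nup205 rose by 0.57, 0.42 and 0.40, which is 15% of them. Of 69 mitochondrial ribosomal protein genes 2 rose (2.9%) and 1 fell (1.45%). Of 31 V-ATPase genes Vha100-2 fell by 0.58 (3.23% of them).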
